A study of Mus musculus with 6 samples.

Results

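Short stretches of CpG-dense DNA that carried methylation in at least 1 of 3 mouse embryonic stem (ES) cell lines were described here, 804 of the 5624 short CpG-dense stretches with enough reads in every line. The density of a CpG was the count of CpG sites from 500 bp before to 500 bp after it, and autosomal sites with a density of 60 or more were joined into stretches over gaps of up to 500 bp. A stretch needed 10 or more sites, a span under 1000 bp and 200 or more reads in each line. It was counted as methylated when methylated reads made up at least 1% of its reads in 1 or more lines. The stretches were thus chosen by their levels in these same libraries, so the levels are given below as a description and without a test.

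The data came from whole-genome bisulfite sequencing, in which unmethylated cytosines are converted and a retained C at a CpG is read as methylated. The first line lacked DNMT1, DNMT3A, DNMT3B and SETD2 and expressed DNMT3B1. The second was the same triple-null for the DNA methyltransferases, expressed DNMT3B1 and was not labelled as a SETD2 knockout. The third was the triple-null expressing DNMT3A2. All 3 lines thus lacked the maintenance enzyme DNMT1, and each carried 1 reintroduced enzyme, whose amount and driving promoter are not given in the labels. The labels place the cells on feeder cells or on gelatine without saying which was used for a line, and name no clone or separate culture. The labels list 2 sequencing runs for each line. Their titles name a HiSeq and a MiSeq run for the DNMT3B1 and DNMT3A2 lines, and a single and a paired-end run for the SETD2 knockout. A difference of the knockout from the other lines therefore cannot be told apart from a difference in sequencing. The values used here are 1 set per line, so differences between lines have no replicate check. The exact (Clopper-Pearson) 95% intervals given here cover counting error only. A read that crosses several CpGs counts at each of them, which makes these intervals too narrow.

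DNMT3A and DNMT3B set new methylation, and DNMT1 copies it after replication. CpG islands, the CpG-dense stretches found at many gene starts, are known to stay largely unmethylated in ES cells, and both DNMT3 enzymes bind unmodified histone H3 tails rather than the H3K4-methylated tails of active islands. Known exceptions are the islands of imprinted loci, methylated on 1 parental copy, and the promoters of germline genes. SETD2 writes the histone mark H3K36me3 over the bodies of transcribed genes, a mark that DNMT3B binds, and the question of the study was which DNA each enzyme methylates and how DNMT3B depends on SETD2.

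The table carried 200947834 reads at CpG sites of the SETD2 knockout line, 188661576 of the DNMT3B1 line and 200364080 of the DNMT3A2 line. Over all these reads the SETD2 knockout line was at 5.85% methylation, the DNMT3B1 line at 2.72% and the DNMT3A2 line at 7.35%. The knockout values listed only sites with at least 10 reads, 9293499 sites in all. The DNMT3B1 line had reads at 17397449 sites and the DNMT3A2 line at 17597542. The levels over all reads thus come from unlike sets of sites. In methylated stretches, 29.9% of the sites were not listed in the knockout. In the remaining 4820 stretches 25.9% were not listed.

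To show where in a promoter the methylated CpGs lay, 5 sequences that carry the main contrasts are printed first. They are the 300 bases around a RefSeq gene start (250 before it and 50 after it, sequence table of build GRCm38.p6), placed on the mm9 CpG positions by their pattern of CpG spacings. Capitals mark each CpG with at least 1 methylated read in the line with the highest level of that stretch. That line was DNMT3A2 for Plagl1, Mcts2 and Rabgef1 and the SETD2 knockout for Sycp1 and Trmt44. Plagl1 and Mcts2 are shown because their methylation was absent or nearly absent in the SETD2 knockout, Sycp1 because its stretch reached 1% in all 3 lines, Rabgef1 because only DNMT3A2 did among these libraries, and Trmt44 for the highest level in the knockout. Windows lie at chr10:12810388-12810687 (plus strand), chr2:152512634-152512933 (plus), chr3:102739974-102740273 (minus), chr5:130647439-130647738 (plus) and chr5:35917670-35917969 (minus) in mm9.
Plagl1: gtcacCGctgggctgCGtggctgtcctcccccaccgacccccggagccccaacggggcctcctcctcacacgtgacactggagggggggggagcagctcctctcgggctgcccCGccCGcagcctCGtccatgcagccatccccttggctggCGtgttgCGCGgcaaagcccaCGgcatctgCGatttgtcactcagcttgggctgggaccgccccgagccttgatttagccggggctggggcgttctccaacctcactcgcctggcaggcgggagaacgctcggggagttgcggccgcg
Mcts2: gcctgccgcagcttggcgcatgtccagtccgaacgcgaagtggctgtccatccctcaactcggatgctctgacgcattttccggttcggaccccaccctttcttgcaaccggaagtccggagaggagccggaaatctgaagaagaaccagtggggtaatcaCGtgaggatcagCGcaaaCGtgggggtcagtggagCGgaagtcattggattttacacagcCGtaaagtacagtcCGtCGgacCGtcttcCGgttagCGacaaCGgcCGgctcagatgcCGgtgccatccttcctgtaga
Sycp1: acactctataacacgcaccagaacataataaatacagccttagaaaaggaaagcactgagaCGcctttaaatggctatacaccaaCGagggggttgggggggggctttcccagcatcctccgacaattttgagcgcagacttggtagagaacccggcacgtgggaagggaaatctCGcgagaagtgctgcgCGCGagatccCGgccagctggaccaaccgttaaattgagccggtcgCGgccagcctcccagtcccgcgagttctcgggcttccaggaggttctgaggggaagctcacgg
Rabgef1: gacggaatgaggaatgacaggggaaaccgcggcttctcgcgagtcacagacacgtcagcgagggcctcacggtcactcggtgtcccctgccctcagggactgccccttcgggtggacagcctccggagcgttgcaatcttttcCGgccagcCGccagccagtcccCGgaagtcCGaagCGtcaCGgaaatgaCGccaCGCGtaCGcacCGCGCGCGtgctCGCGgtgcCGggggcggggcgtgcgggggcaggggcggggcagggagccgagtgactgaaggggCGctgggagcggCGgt
Trmt44: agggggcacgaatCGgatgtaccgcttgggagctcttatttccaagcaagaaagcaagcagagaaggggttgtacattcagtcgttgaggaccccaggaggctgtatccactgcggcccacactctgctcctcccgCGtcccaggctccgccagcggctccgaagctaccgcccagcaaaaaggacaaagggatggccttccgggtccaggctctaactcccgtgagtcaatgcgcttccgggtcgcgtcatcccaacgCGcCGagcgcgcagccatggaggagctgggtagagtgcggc

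The capitals formed unbroken runs in some promoters and isolated points in others. In Rabgef1, 17 neighbouring CpGs from -107 to -22 bp relative to the start each had a methylated read with DNMT3A2. In Plagl1 a run of 8 CpGs reached from -137 to -68 bp, and in Mcts2 a run of 13 CpGs from -89 to 29 bp. Of these 13, the first 5 had 4 to 8 methylated DNMT3A2 reads each and lay under the density limit, so they were not counted in the stretch, and the last 8 had 1 each. The CpGs of the Mcts2 stretch with the highest levels, 22.7% to 37.5% with DNMT3A2, lay beyond the window. The longest run was 3 CpGs in Sycp1 and 2 in Trmt44. The Sycp1 window had 23 methylated of 346 reads in the SETD2 knockout (6.65%), 1 of 121 in the DNMT3B1 line (0.826%) and 5 of 178 in the DNMT3A2 line (2.81%), so within the window the DNMT3B1 line was below 1%. The letters TGCCGC, the core of the motif bound by the imprint-protecting protein ZFP57, were searched on both strands. They occurred at 1 place in the Plagl1 window and at 1 in the Mcts2 window, and in 11.6% of all 32851 promoter sequences of the same length. Among the 17536 placed promoters, which hold enough CpGs to be placed as these were, 19.3% had a match. At the Plagl1 match, which began at -90 bp, the CpG was methylated in 0 of 14 reads of the SETD2 knockout, 12 of 30 of the DNMT3B1 line and 17 of 34 of the DNMT3A2 line. At the Mcts2 match it was methylated in 0 of 31, 0 of 13 and 0 of 23 reads of the same lines.

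Most methylated stretches passed in 1 line, and for most of those this was the SETD2 knockout. Of 804 stretches (14.3% of all tested), 686 reached 1% in 1 line, 95 in 2 lines and 23 in all 3 lines, or 85.3%, 11.8% and 2.86% of them. The SETD2 knockout reached 1% in 618 stretches (11.0% of all 5624), the DNMT3B1 line in 108 (1.92%) and the DNMT3A2 line in 219 (3.89%), and all 3 lines together in 0.409%. The knockout alone accounted for 513 stretches, DNMT3B1 alone for 58 and DNMT3A2 alone for 115. Of the pairs, the knockout with DNMT3B1 held 14, the knockout with DNMT3A2 68, and DNMT3B1 with DNMT3A2 13. Thus among 37 stretches at 1% in both DNMT3B1-expressing lines, 23 also reached it with DNMT3A2.

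**Figure D1:**
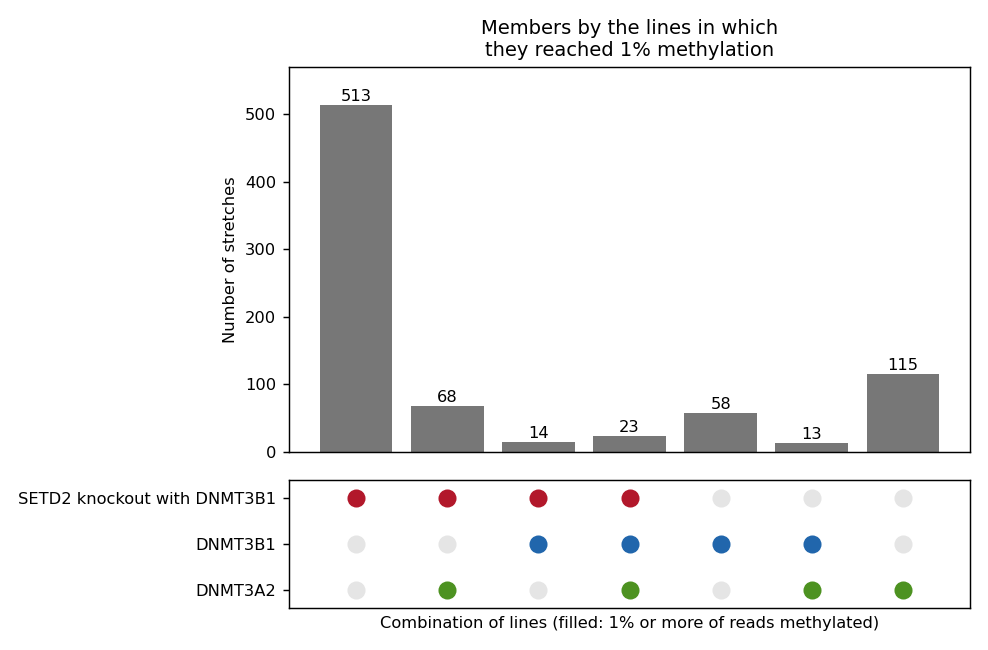
Number of methylated stretches (members, y axis) for each combination of lines in which they reached 1% of reads methylated; filled circles below each bar name the lines. The bar for the SETD2 knockout alone holds 513 of the 804 stretches, that for all 3 lines 23.

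The levels were low. The highest of the 3 line levels lay between 1% and 2% in 600 stretches, between 2% and 5% in 191, between 5% and 10% in 8 and at 10% or more in 5, with a median of 1.43%. Pooled over the 804 stretches, 1.38% of reads were methylated in the SETD2 knockout (interval 1.35% to 1.41%), 0.397% in the DNMT3B1 line (0.381% to 0.414%) and 0.727% in the DNMT3A2 line (0.705% to 0.749%). The remaining 4820 stretches held 0.332%, 0.115% and 0.140% in the same order of lines. The knockout was therefore the highest line on these stretches and in the remaining ones. Over all CpG reads DNMT3A2 was the highest, though there the knockout level came from fewer sites. The ratio of the knockout to the DNMT3B1 line was 3.47 in the methylated stretches and 2.88 in the remaining ones, and that of the DNMT3B1 to the DNMT3A2 line was 0.547 and 0.821. The 1% rule itself sets these groups apart, since 618 of the 804 stretches passed in the knockout. Over all 5624 stretches, chosen without regard to level, the 2 ratios were 3.05 and 0.705. The knockout lay above the DNMT3B1 line in 680 of the 804 stretches and below it in 111, in part by the same rule. Over all 5624 stretches the intervals were separate with the knockout higher in 6.31% and with the DNMT3B1 line higher in 0.267%.

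The 1% limit cut through a continuum. The stretches just inside it had levels of 1% to 1.003%, such as 4 methylated of 400 reads, and those just outside had 0.9975% to 0.9986%, such as 4 of 401 reads. Of the stretches at 1% in a line, the exact lower bound was also at or above 1% in 179 for the SETD2 knockout (3.18% of all tested), 23 for the DNMT3B1 line (0.409%) and 64 for the DNMT3A2 line (1.14%), together 224 (3.98%). The share of stretches that passed was highest where reads were few. It was 21.4% where the shallowest line had 200 to 399 reads and 7.54% where it had 1000 or more. Leaving out the site with the most methylated reads of each line gave 395 stretches, a setting chosen after the data were seen, and with sites of at least 10 reads in every line 388 in place of 618 passed in the knockout.

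**Figure D2:**
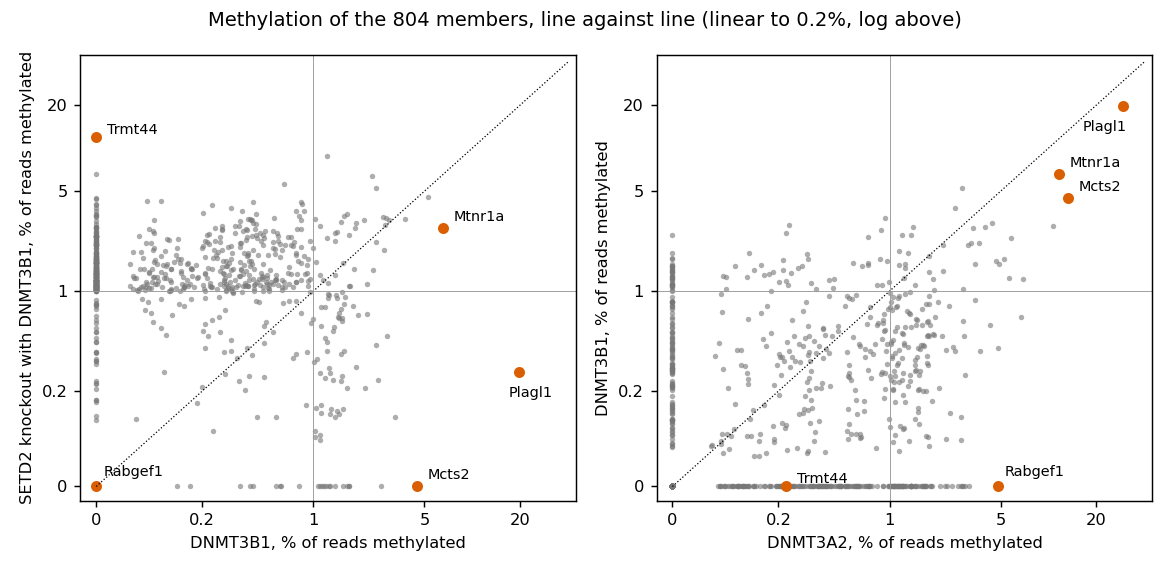
Percent of reads methylated in each of the 804 methylated stretches (points), SETD2 knockout against DNMT3B1 line on the left and DNMT3B1 against DNMT3A2 line on the right; axes are linear to 0.2% and logarithmic above, thin lines mark 1%, the dotted line marks equal levels, and 5 named stretches are orange. Points above the left diagonal (680) outnumber those below (111), in part by the rule that chose the stretches, and Plagl1 and Mcts2 lie far below it.

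Within a stretch, several CpGs had a methylated read in most cases. In stretches that reached 1%, the median number of CpGs with a methylated read was 6 in the SETD2 knockout, 5 in the DNMT3B1 line and 6 in the DNMT3A2 line. At least 5 such CpGs were present in 412 of 618, 58 of 108 and 145 of 219 stretches. The median spacing of neighbouring CpGs was 7 bp, so 1 read can cross several of them. These counts therefore do not show how many separate reads lay behind a call. The median number of methylated read counts behind the call was 11 in the knockout, 8 in the DNMT3B1 line and 10 in the DNMT3A2 line, and the fewest was 3 in each. In 47, 22 and 31 of these stretches no CpG had more than 1 methylated read. At least 1 CpG with 2 or more methylated reads in a line that passed was found in 718 of the 804 stretches.

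Lines shared methylated stretches more often than the background share of each line. In each line stretches with few reads or few CpGs passed more often, and the shares here were not matched for either. Of the 219 stretches at 1% with DNMT3A2, 91 were also at 1% in the SETD2 knockout (41.6%, interval 35.0% to 48.4%), against 9.75% of the stretches below 1% with DNMT3A2. Of the 108 at 1% in the DNMT3B1 line, 37 were also at 1% in the knockout (34.3%, 25.4% to 44.0%), against 10.5% of the others. Of the same 108, 36 were at 1% with DNMT3A2 (33.3%, 24.6% to 43.1%), against 3.32%. Seen from the knockout, 37 of its 618 stretches (5.99%) were at 1% in the DNMT3B1 line and 91 (14.7%) with DNMT3A2. In the 513 stretches of the knockout alone, the median level was 1.33% in the knockout, 0.0696% in the DNMT3B1 line and 0.133% in the DNMT3A2 line. Of these 513, 253 had no methylated read in the DNMT3B1 line. This was not above the share of all 5624 stretches, of which 54.6% had none in that line.

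A stricter count used the bounds of the intervals. The bounds come from the reads that chose the stretches and are too narrow where 1 read crosses several CpGs, so this count is a description as well. Here a line held methylation when its exact lower bound was at or above 1%, and lacked it when its upper bound was under 1%, as in 49.0% of all tested for the SETD2 knockout, 76.3% for the DNMT3B1 line and 72.8% for the DNMT3A2 line. The SETD2 knockout held methylation that the DNMT3B1 line lacked in 78 stretches (1.39% of all tested), with median levels of 2.28% and 0.0348%. In 39 of these DNMT3A2 lacked it too, and in 10 DNMT3A2 was at 1% or more. The opposite, methylation of the DNMT3B1 line that the knockout lacked, was found in 7 stretches (0.124%). DNMT3A2 held methylation that the knockout lacked in 9 stretches (0.160%) and that the DNMT3B1 line lacked in 17 (0.302%). The knockout held methylation that DNMT3A2 lacked in 61 (1.08%), and the DNMT3B1 line in 0 (0.00%). Separate intervals with the knockout higher were found in 355 stretches against the DNMT3B1 line (6.31%) and in 278 against DNMT3A2 (4.94%). The DNMT3B1 line was higher than the knockout in 15 (0.267%) and than DNMT3A2 in 24 (0.427%), and DNMT3A2 was higher than the knockout in 34 (0.605%) and than the DNMT3B1 line in 77 (1.37%).

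The 7 stretches lost in the SETD2 knockout by this count lay at the starts of Plagl1 with Hymai, Mcts2, Wdr37 and Arrdc3, and away from placed starts near Tmem185b, Atg16l2 and Gm32342. In 3 of them, at Plagl1, at Mcts2 and 18866 bp upstream of Atg16l2, DNMT3A2 was above 1% as well. The stretch at Plagl1, which encodes an imprinted zinc finger factor, shares its promoter region with the imprinted noncoding RNA Hymai and lies at chr10:12810307-12811196 with 77 CpGs. It had 2 methylated of 731 reads in the SETD2 knockout (0.274%, 0.0332% to 0.985%), 217 of 1103 in the DNMT3B1 line (19.7%, 17.4% to 22.1%) and 325 of 1113 in the DNMT3A2 line (29.2%, 26.5% to 32.0%). This was the highest level of any methylated stretch in both the DNMT3B1 and the DNMT3A2 line, and the knockout interval overlapped neither.

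Methylation at Plagl1 was unevenly placed along the stretch. Of 71 CpGs left after the read maximum, 23 had a methylated read in the DNMT3B1 line, 23 in the DNMT3A2 line, and 20 were the same CpGs. Those 20 were methylated in 39.6% of reads with DNMT3B1 and 48.4% with DNMT3A2. The 45 CpGs methylated in neither carried 519 reads in the DNMT3B1 line and 386 in the DNMT3A2 line. Depth differed as well, with 665 DNMT3A2 reads on the 20 shared CpGs. From the CpG at 184 bp to that at 194 bp, reads rose from 7 to 24 with DNMT3B1 and from 11 to 36 with DNMT3A2. The knockout had 12 and 11 reads there. The cause of this difference in depth was not tested. Of the 26 CpGs that were methylated in either of these 2 lines, not all were listed in the SETD2 knockout. At those that were, 1 of 329 knockout reads was methylated.

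Mcts2, an imprinted retrogene inside an intron of H13, showed the same order of lines. Its stretch at chr2:152512706-152513024, with 21 CpGs, had 0 methylated of 598 reads in the SETD2 knockout, 18 of 403 in the DNMT3B1 line (4.47%, 2.67% to 6.97%) and 47 of 356 in the DNMT3A2 line (13.2%, 9.86% to 17.2%). The exact upper bound in the knockout was 0.615%, and the floor of 3 reads set for a count of 0 stood at 0.502%. Within the stretch, methylated reads fell on 6 CpGs in the DNMT3B1 line, all of them among the 18 methylated in the DNMT3A2 line. The promoter was placed with 1 CpG of its sequence missing from the table.

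The other stretches lost in the knockout were weaker. Near Gm32342, chr19:37767469-37767847 had 1 methylated of 689 reads in the SETD2 knockout (0.145%), 14 of 432 in the DNMT3B1 line (3.24%) and 5 of 538 in the DNMT3A2 line (0.929%). The stretch upstream of Atg16l2, chr7:108469468-108470321, had 0.209%, 2.11% and 2.18% in the same order. At Wdr37 all 8 methylated reads of the DNMT3B1 line lay on 1 CpG, and at Arrdc3 its 9 methylated reads lay on 9 CpGs with 1 each. Under 16 other settings, Plagl1 and Mcts2 were each counted as lost in 13, Gm32342 and Tmem185b in 11, Atg16l2 and Arrdc3 in 10 and Wdr37 in 8.

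**Figure D3:**
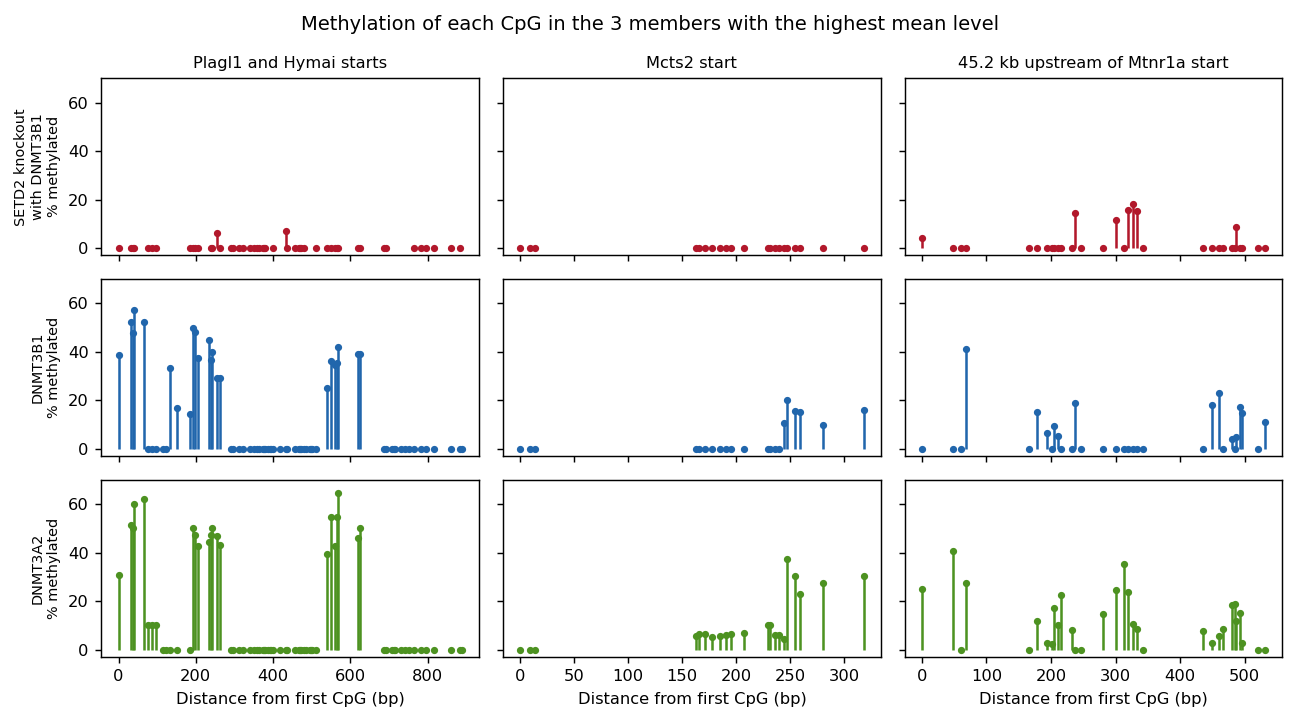
Percent of reads methylated at each CpG (y axis) against its distance from the first CpG of the stretch in bp, for the 3 stretches with the highest mean level (columns) in the SETD2 knockout, DNMT3B1 and DNMT3A2 lines (rows, top to bottom); each point is 1 CpG and CpGs without reads are left out. At Plagl1 methylation reaches 57.1% of a site in the DNMT3B1 line and 64.5% in the DNMT3A2 line, with 2 methylated sites in the knockout, and at Mcts2 the knockout row is at 0 throughout.

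Stretches methylated in the SETD2 knockout and not in the DNMT3B1 line lay more often away from placed promoters than at them. The stretch at the start of Trmt44, a tRNA methyltransferase gene, chr5:35917323-35917747, had 41 methylated of 345 reads in the SETD2 knockout (11.9%, 8.66% to 15.8%), 0 of 408 in the DNMT3B1 line and 1 of 450 in the DNMT3A2 line (0.222%). Of the 41, 29 lay on 1 CpG read 35 times, and 2 CpGs carried all of them. The stretch 1208 bp downstream of the start of Prrt1, chr17:34767717-34768079, had 35 of 529 (6.62%), 0 of 361 and 2 of 465 reads (0.430%) methylated in the same order of lines, on 9 CpGs in the knockout. Its upper bound in the DNMT3B1 line was 1.02%, so it was not part of the stricter count. The stretch at the shared start region of Mrto4 and Emc1, chr4:138908038-138908606, had 4.27%, 0.122% and 0.117%. By the stricter count, 75 stretches with methylation in the knockout that the DNMT3B1 line lacked lay outside chromosome 18. No promoter sequences were used for that chromosome. Of the 75, 27 overlapped a placed promoter (36.0%, 25.2% to 47.9%), against 67.3% of all 5483 stretches tested outside chromosome 18. This low share was not particular to them. Among all stretches with an exact lower bound at or above 1%, it was 28.2% in the knockout, 39.1% in the DNMT3B1 line and 28.3% in the DNMT3A2 line.

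The start of Rabgef1, which encodes a RAB5 exchange factor, was methylated in the DNMT3A2 line alone. Its stretch at chr5:130647318-130648273, with 104 CpGs, had 0 methylated of 1586 reads in the SETD2 knockout, 0 of 1225 in the DNMT3B1 line and 62 of 1294 in the DNMT3A2 line (4.79%, 3.69% to 6.10%). The 62 methylated read counts fell on 31 CpGs with at most 3 each. The 17 neighbouring CpGs from -107 to -22 bp had 2 or 3 each. A few reads that cross many CpGs could thus give many of these counts, and single reads could not be told apart. The starts of Rps6, a ribosomal protein gene, and Amph, an endocytic adaptor gene, also held methylation with DNMT3A2 that both other lines lacked, at 1.83% and 2.23%. At Rps6 the 16 methylated reads lay on 3 CpGs, and at Amph the 9 lay on 9 CpGs with 1 each. Among the stretches named by rule, 1 had methylated reads in the DNMT3B1 line alone, that at Ippk, an inositol phosphate kinase gene, with 0 of 743 reads in the SETD2 knockout, 9 of 540 in the DNMT3B1 line (1.67%) and 0 of 708 in the DNMT3A2 line. Those 9 reads lay on 9 CpGs, 1 each.

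The 23 stretches at 1% in all 3 lines had higher levels, with medians of 3.14% in the SETD2 knockout, 2.18% in the DNMT3B1 line and 3.44% in the DNMT3A2 line. The knockout was the highest line in 8 of them, DNMT3B1 in 4 and DNMT3A2 in 11, and DNMT3B1 was the lowest in 13. The first of them by mean level lay 45209 bp upstream of the start of Mtnr1a, a melatonin receptor gene, at chr8:46108719-46109251. It had 19 methylated of 688 reads in the SETD2 knockout (2.76%, 1.67% to 4.28%), 42 of 642 in the DNMT3B1 line (6.54%, 4.76% to 8.74%) and 134 of 1149 in the DNMT3A2 line (11.7%, 9.86% to 13.7%). These 3 intervals did not overlap. In the DNMT3A2 line its CpGs had 23 to 41 reads each, under the read maximum of 45, against 11.7 reads per site over all methylated stretches. The cause of this depth was not tested. A stretch 4738 bp upstream of the uncharacterised LOC115490142, chr5:134692400-134692962, had the opposite order of the DNMT3B1-expressing lines, with 8.81%, 1.21% and 6.94%.

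In most of these 23 stretches the intervals of all 3 lines overlapped, as at Sycp1 and near Gm5897. The stretch at the start of Sycp1, a meiotic synapsis gene, chr3:102739390-102740152, had 33 of 1050 reads methylated in the SETD2 knockout (3.14%), 17 of 813 in the DNMT3B1 line (2.09%) and 31 of 991 in the DNMT3A2 line (3.13%). The stretch 9304 bp upstream of Gm5897, chr7:53049141-53050041, had 4.55%, 5.25% and 2.87% in the same order. The stretch 7495 bp upstream of Pgls, a pentose phosphate pathway gene, chr8:74108321-74108587, had 6.42% in the SETD2 knockout (4.48% to 8.85%), 2.35% in the DNMT3B1 line (1.08% to 4.41%) and 5.81% in the DNMT3A2 line (3.21% to 9.55%), and there the knockout interval lay above that of the DNMT3B1 line. Of the 23, 5 overlapped a placed promoter, at D1Pas1, Sycp1, Gm35369, Klhl9 and H2-Q6. Leaving out the site with the most methylated reads gave 15 stretches at 1% in all 3 lines.

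**Figure D4:**
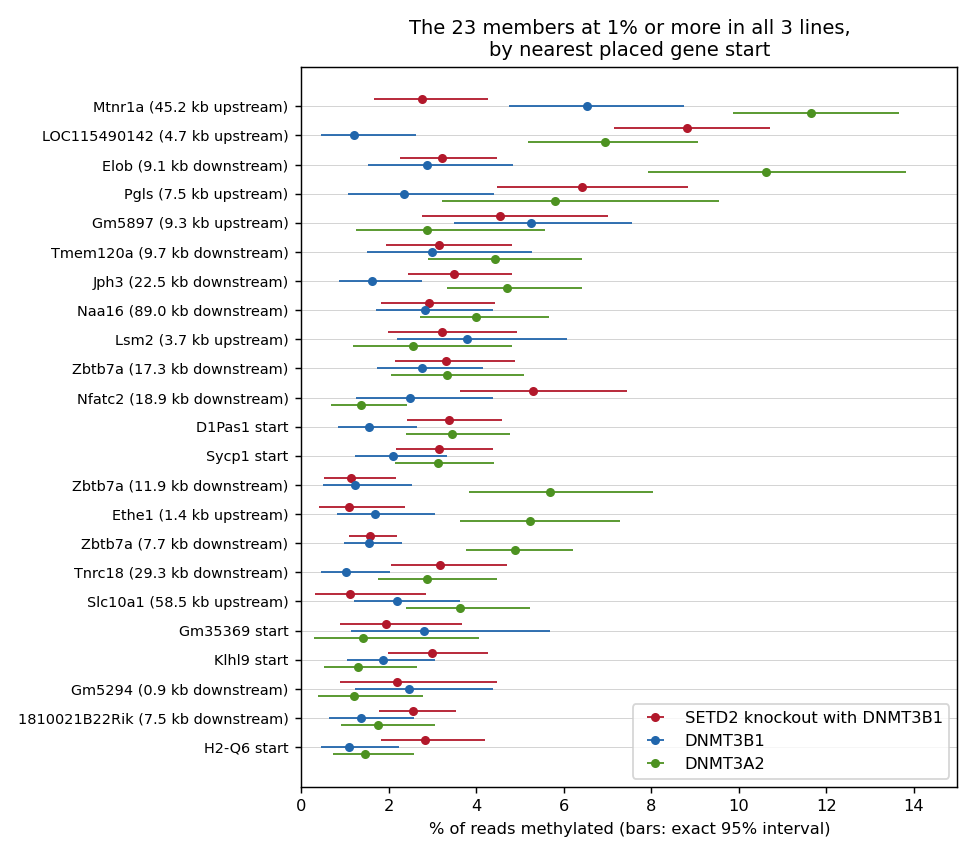
Percent of reads methylated (x axis) in the 23 stretches at 1% or more in all 3 lines, named by the nearest placed gene start and sorted by mean level; points are the line levels and bars the exact 95% intervals, which cover counting error only. The DNMT3B1 line is the lowest of the 3 in 13 stretches, and at Mtnr1a the levels are 2.76% in the SETD2 knockout, 6.54% in the DNMT3B1 and 11.7% in the DNMT3A2 line, with separate intervals.

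Gene starts were found at fewer methylated stretches than at the rest. A placed promoter overlapped 376 of 783 methylated stretches outside chromosome 18 (48.0%, 44.5% to 51.6%) and 3314 of 4700 remaining ones (70.5%, 69.2% to 71.8%). The share was 53.4% of stretches whose highest level was 1% to 2%, 32.6% at 2% to 5% and 3 of 13 above that. Read the other way, 10.2% of the stretches at a placed promoter were methylated, against 23.0% of those with none within 1000 bp. Of the methylated stretches farther than 1000 bp from a start, 60.8% lay downstream of the nearest one, against 51.7% of the remaining ones. Not every promoter could be placed, so a stretch without one may still hold a start.

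Genes of 2 classes known for CpG island methylation were looked up by list. Of 25 imprinted loci, 18 had a placed promoter and 7 of these lay at a short stretch. The stretches at Plagl1 and Mcts2 were methylated by the 1% rule, and those at the starts of Nnat, Mest, Inpp5f, Igf2r and Fkbp6 were below it in every line. The lookup took the stretch at the placed gene start. Whether that stretch is the imprinted island of the locus was not checked, so these 5 do not show that the imprinted islands were unmethylated. The highest level among those 5 was 0.594% in the SETD2 knockout (Nnat), 0.326% in the DNMT3B1 line (Igf2r) and 0.889% in the DNMT3A2 line (Fkbp6). Of 27 germline genes, 25 had a placed promoter, 8 lay at a short stretch and 4 were methylated, namely Sycp1, Mael, Ddx4 and Tdrkh, against Tex14, Fkbp6, Smc1b and Stag3. Mael, a piRNA pathway gene, had 3.24% in the SETD2 knockout, 0.564% in the DNMT3B1 line and 1.11% in the DNMT3A2 line. Ddx4, a germ cell RNA helicase gene, had 0.645%, 1.45% and 1.25% in the same order, and Tdrkh, also of the piRNA pathway, 1.05%, 0% and 0.133%. The share of all promoter stretches that passed was 10.2%, and counts of 7 and 8 genes are too small to compare with it.

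In shape the methylated stretches were shorter and less dense. The median span was 691 bp, against 741 bp in the remaining stretches, the median number of CpGs 62 against 69, and the median of the mean density 69.1 against 72.6. Of stretches with 10 to 29 CpGs, 23.0% were methylated, and of those with 70 or more 11.1%. Median reads per stretch were also lower, with 698 against 868 in the SETD2 knockout, 675.5 against 794 in the DNMT3B1 line and 692 against 793 in the DNMT3A2 line. The part of depth in these differences was not tested apart from the shares by depth above.

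The flanks, whose levels the rule did not use, were also more methylated around these stretches. Over sites of density under 60 within 1000 bp of the border, 2.64% of reads were methylated in the SETD2 knockout (2.60% to 2.69%), 0.907% in the DNMT3B1 line (0.878% to 0.937%) and 2.50% in the DNMT3A2 line (2.45% to 2.55%). Around the remaining stretches the levels were 1.73% (1.72% to 1.75%), 0.568% (0.558% to 0.579%) and 1.49% (1.47% to 1.50%). The ratios were 1.53 in the knockout, 1.60 in the DNMT3B1 line and 1.68 in the DNMT3A2 line. Around the 513 stretches that passed in the knockout alone, the ratio was 1.45 in the knockout, 1.44 in the DNMT3B1 line and 1.45 in the DNMT3A2 line. The flanks of these stretches were thus raised by about the same factor in lines that did not pass.

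The stretches at 1% in all 3 lines had flank levels of 4.26%, 2.07% and 6.33% in the same order of lines. Reads can span the border, so sites at least 400 bp away were also taken. There the levels were 3.73% in the SETD2 knockout, 1.33% in the DNMT3B1 line and 3.82% in the DNMT3A2 line around methylated stretches, against 2.86%, 1.02% and 2.82% around the remaining ones. At matched flank density of 40 to 59 the levels were 1.64%, 0.591% and 1.37%, against 0.717%, 0.199% and 0.395%. The relative difference was smaller at lower density. At 20 to 39 the levels were 2.96%, 0.984% and 2.98%, against 1.80%, 0.587% and 1.54%. At 1 to 19 they were 5.12%, 1.82% and 5.37%, against 3.74%, 1.39% and 3.85%. Between 1500 and 1750 bp from the border the knockout had 5.21% around methylated and 5.12% around the remaining stretches, the DNMT3B1 line 2.04% and 2.22%, and the DNMT3A2 line 6.02% and 6.15%.

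**Figure D5:**
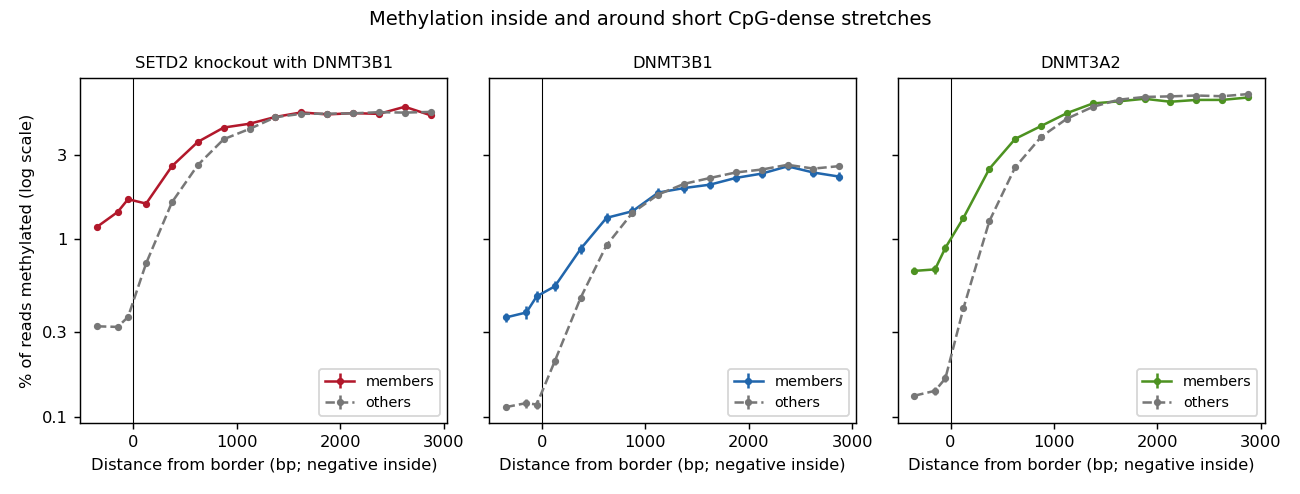
Percent of reads methylated (y axis, log scale) against distance from the stretch border in bp, negative inside, for methylated stretches (members, solid) and the remaining stretches (others, dashed) in the SETD2 knockout, DNMT3B1 and DNMT3A2 lines from left to right; error bars are exact 95% intervals, mostly smaller than the points. The solid lines lie above the dashed ones inside the stretch, by the rule itself, and near its border, and the lines come together by about 1500 bp.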

How the data were processed

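Whole-genome bisulfite sequencing covered 3 ES cell lines, grouped by sample title, with 2 runs each in the labels and 1 set of values each in the files used. Per the file headers, the deposited table held the coverage and the count of methylated reads of each CpG for the DNMT3B1 and DNMT3A2 lines. The deposited SETD2 knockout values gave the same counts and their fraction; its 2 deposited files were identical and used once, and it is not known whether they hold 1 run or both. Positions are mm9, as the submitters' processing notes name it; for the aligner, the caller and duplicate handling: not given in the sources used here. Per the labels' protocols, DNA of phages T7 and lambda was added to control the conversion; levels here include unconverted cytosines.

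Sites above 80 reads in the SETD2 knockout, 40 in the DNMT3B1 or 45 in the DNMT3A2 line were removed from all lines, which took 107 of the 49687 sites of the methylated stretches. Levels are methylated over total reads with exact 95% intervals, and no p-value was computed. A line with 0 methylated reads was given a floor of 3 reads. Promoter sequences from RefSeq (GRCm38.p6) with at least 6 CpGs were placed where the spacings of all their CpGs matched the mm9 table at 1 position, or, with at least 12 CpGs, all but 1. Of 18541 such sequences 17536 were placed, all on the RefSeq chromosome, and no GRCm38 coordinate was used. Distances are to the nearest placed start. Gene starts on chromosome 18 were not analysed here. Named stretches were the 8 with the highest mean level, the 5 highest in each line and the 5 largest differences for each ordered pair of lines among those with separate intervals, which gave 23, of which the text names some; those of the lists, of the lost stretches and Arrdc3, Rps6 and Amph were added from the counts they belong to. The members and gene lists were chosen with earlier results of these data known. The stretch finder and the promoter placement were tested on simulated data. Calculations ran in Python 3.11.15 with scipy 1.17.1, numpy 2.4.6 and pandas 2.3.3, and plots in matplotlib 3.10.9. Alternatives varied the read maximum, density, gap, site, read and level minimums and the flank width.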

Additional observations from a re-analysis of the deposited data

How the results depend on the processing

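Of 204 values recomputed under other settings, 109 stayed close (counts within 1.5 times, levels within the exact interval) and 95 moved, as given here in the order SETD2 knockout, DNMT3B1 and DNMT3A2 line where 3 values stand together. With 500 or more reads in each line there were 462 methylated stretches, of which 367, 51 and 116 reached 1% per line and 13 in all lines, 99, 7 and 35 by the exact lower bound, 2 were lost in the knockout, and the knockout pooled level was 1.32%. With density 50 or more the counts at 1% were 953, 230 and 418 with 99 in all lines, 358, 67 and 153 by the lower bound, and pooled levels were 1.64%, 0.515% and 0.973%. With density 70 or more, 9 were at 1% in all lines, 91, 14 and 40 by the lower bound, and pooled levels were 1.24%, 0.345% and 0.592%. A level of 2% left 204 stretches, 164, 23 and 53 per line, 9 in all lines, 39, 5 and 22 by the lower bound, 2 lost and pooled levels of 2.43%, 0.755% and 1.62%. A level of 5% left 13 stretches, 6, 3 and 9 per line, 0 in all lines, 2, 1 and 5 by the lower bound, 1 lost and pooled levels of 4.18%, 5.43% and 9.67%. Subtracting the level of all 5624 stretches left 437, with 282 in the knockout and 84 by its lower bound, and pooled levels of 1.20%, 0.430% and 0.903%. Without a read maximum 11 were lost and pooled levels were 0.470% with DNMT3B1 and 0.779% with DNMT3A2, and with the maximum applied per line the DNMT3A2 level was 0.751%. A site minimum of 10 reads in every line gave 388 in the knockout, lower bound counts of 108 in the knockout and 41 with DNMT3A2, 4 lost and pooled levels of 1.41%, 0.487% and 0.925%. A minimum of 5 gave 4 lost and pooled levels of 1.33%, 0.440% and 0.797%. Leaving out the site with the most methylated reads, added after the data were seen, gave 395 stretches, 294, 50 and 120 per line, 15 in all lines, 89, 9 and 35 by the lower bound, 4 lost and pooled levels of 1.33%, 0.328% and 0.822%. Without the stretch with the most methylated reads of a line the pooled level was 0.360% with DNMT3B1 and 0.672% with DNMT3A2. Flank levels were 1.98%, 0.670% and 1.77% within 500 bp, 3.48%, 1.30% and 3.69% within 2000 bp, and 3.73%, 1.33% and 3.82% at 400 to 1000 bp. The cause of these shifts was not tested beyond what the settings themselves fix. In each setting but the level of 5% the knockout had the most stretches at the level and DNMT3B1 the fewest. No paired analysis was possible because the deposited values pool or do not separate the runs of a line, and no run could be left out. Depth limits single stretches: at 200 reads the 1% rule needs 2 methylated reads.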

Other observations

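Methylated stretches lay near each other. Of 187 methylated stretches with any short stretch within 20 kb, 59 had a methylated one there (31.6%), and of 989 remaining stretches with one nearby, 169 did (17.1%). A run of 3 methylated stretches lay downstream of Zbtb7a, a transcription factor gene, at 7666, 11900 and 17330 bp from its start on chromosome 10. They were chosen after their values were seen. Each was at 1% or more in all 3 lines, with 1.58%, 1.15% and 3.31% in the SETD2 knockout, 1.55%, 1.24% and 2.76% in the DNMT3B1 line and 4.88%, 5.68% and 3.33% in the DNMT3A2 line.

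By chromosome, between 10.0% (chromosome 3) and 18.7% (chromosome 5) of the short stretches were methylated. Stretches of 1000 bp or more, 3358 with enough reads, had pooled levels of 0.470% in the SETD2 knockout, 0.159% in the DNMT3B1 line and 0.201% in the DNMT3A2 line. Of these longer stretches 8.19%, 0.685% and 1.76% reached 1% in the same order of lines.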
